A study of Mus musculus with 10 samples.

Results

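The genes described here are 8 transcripts of the Schwann cells that wrap the nerve branches within muscle: Mbp, Pmp22, Prx, Mag and Ncmap, which encode proteins of myelin or of the myelinating cell, Sox10 and S100b, which mark the Schwann cell lineage, and Ngfr, the low-affinity neurotrophin receptor (p75) that is linked to nerve injury. They were taken by their gene symbols, with earlier results of these data known, and all 8 were found among the 54232 genes of the RNA-Seq table of gastrocnemius muscle. Of the 8 genes, 7 lay above the expression limit used for testing (mean rlog value of log2(10) or more), which 14289 genes passed, and Ngfr lay below it. The study also describes the tissue as gastrocnemius together with plantaris, its neighbour in the calf. No member passed the test for a difference between desmin knock-out and wild-type muscle, and no myelin gene passed it for a difference relative to Ngfr.

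Motor and sensory axons run into a muscle as intramuscular nerves, and each large axon is ensheathed by a row of myelinating Schwann cells, whose membrane is packed with a small set of abundant myelin proteins. Terminal Schwann cells, which do not form myelin, cap the neuromuscular junction. When an axon is lost, myelinating Schwann cells are known to lower their myelin transcripts and to raise Ngfr, so the myelin genes and Ngfr are commonly read side by side in injured nerve. In a whole muscle these transcripts come from a small minority of the cells, and fewer Schwann cells and less RNA per Schwann cell cannot be told apart in such bulk samples.

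The 2 groups were 5 homozygous desmin knock-out mice (Des -/-) and 5 wild-type mice (Des wt/wt), the latter littermates, all of 1 congenic strain (a B6J background with the desmin allele Destm1Cba from 129Sv, colony Cscl), 3 months old and with no treatment listed. Their sex is not given in the sources used here, but Y-linked transcripts were expressed in every mouse. Desmin is an intermediate filament protein of muscle cells, and the knock-out is constitutive, not limited to 1 cell type. The deposited values are rlog values, DESeq2's regularized log2 expression, which corrects for library size and pulls each gene towards its own mean, so that differences of weakly expressed genes come out smaller than they would from counts, and the depth per mouse is unknown. The methods mention pooled RNA of 5 muscles although the table has 1 column per mouse, and if the columns shared material the p-values would cover only technical spread. Des itself (ENSMUSG00000026208, GRCm38 chr1:75360329-75368579, plus strand) lay between 11.76 and 11.89 in the knock-out mice and between 16.10 and 17.74 in the wild-type mice, in accordance with the labels. Wild-type mouse 3 stood apart: it correlated with its own genotype at 0.982 on average, compared with 0.989 to 0.991 for mice 1, 2, 4 and 5, and its summed expression was 1.48 times the median, compared with 0.949 to 1.06 times in the other 9 mice. Results are therefore also given without it. The labelled tissue was checked with 10 genes of skeletal muscle fibres (Acta1, Ckm and the fast myosins among them), whose summed expression, 2 to the power of the rlog value, was at least 4694380 in every mouse, compared with at most 2196 for the 8 Schwann cell and myelin genes.

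Among themselves the members spanned a wide range of expression. The log2 exonic length in kilobases was subtracted, with all annotated exons of a gene merged (8.469 for Mbp and 1.484 for S100b). This length can exceed that of the transcripts expressed, so the order is not one of transcript abundance. Pmp22 had the highest length-scaled level, with a mean of 8.82 over the 10 mice (range 8.29 to 9.15), followed by Mbp with 5.76 (5.15 to 6.27). Prx with 4.59 (4.26 to 4.93) and S100b with 4.53 (4.08 to 4.82) came next, and the ranges of these neighbours overlapped. Ncmap had a length-scaled level of 3.14 (2.79 to 3.45) and overlapped with Sox10 at 2.71 (2.32 to 3.08). Mag, at 1.62 (1.29 to 2.16), overlapped with Ngfr at 1.10 (0.76 to 1.63), the lowest of the 8 genes. All other neighbours in this order had ranges over the 10 mice that did not overlap. The position of Pmp22 does not speak for Schwann cells alone, because Pmp22 is also expressed outside the nerve, for instance in fibroblasts.

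The promoter sequences of 4 members are shown. Pmp22 and Prx each varied with Mbp from mouse to mouse by Pearson's r (exact permutation test, adjusted p = 0.0428 for both). By the rank correlation neither passed the threshold (adjusted p = 0.137 for both). Mag and Ngfr, which had the lowest length-scaled levels of the members, did not pass with Mbp by either measure. The difference between these pairs was not tested. The pair of Pmp22 and Prx itself did not pass the threshold (Pearson r = 0.744, exact permutation test, adjusted p = 0.174). The sequences are the 250 bases before the outermost annotated start, read 5′ to 3′ on the strand of the gene from RefSeq on GRCm38.p6. That table matched 6 of the 8 members (Mbp and Sox10 were not matched). The windows are chr11:63128732-63128981 (plus) for Pmp22, chr7:27499074-27499323 (plus) for Prx, chr7:30914923-30915172 (minus) for Mag and chr11:95587736-95587948 (minus) for Ngfr, which kept 213 bases after 37 transcribed bases were removed. Capitals mark matches to core motifs of factors known from Schwann cells.
Pmp22: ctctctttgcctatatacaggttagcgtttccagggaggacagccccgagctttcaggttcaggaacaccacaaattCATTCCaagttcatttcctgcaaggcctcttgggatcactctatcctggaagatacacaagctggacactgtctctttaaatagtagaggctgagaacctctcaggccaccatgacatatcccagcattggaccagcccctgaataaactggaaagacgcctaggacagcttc
Prx: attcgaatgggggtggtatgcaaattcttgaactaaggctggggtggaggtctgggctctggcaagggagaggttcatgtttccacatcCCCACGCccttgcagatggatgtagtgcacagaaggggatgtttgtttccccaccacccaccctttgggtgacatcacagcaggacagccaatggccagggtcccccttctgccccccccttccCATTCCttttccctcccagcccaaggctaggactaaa
Mag: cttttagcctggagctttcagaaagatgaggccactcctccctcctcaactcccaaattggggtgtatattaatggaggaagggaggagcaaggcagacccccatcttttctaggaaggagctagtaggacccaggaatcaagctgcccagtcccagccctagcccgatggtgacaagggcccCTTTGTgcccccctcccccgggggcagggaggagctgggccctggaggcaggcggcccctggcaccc
Ngfr: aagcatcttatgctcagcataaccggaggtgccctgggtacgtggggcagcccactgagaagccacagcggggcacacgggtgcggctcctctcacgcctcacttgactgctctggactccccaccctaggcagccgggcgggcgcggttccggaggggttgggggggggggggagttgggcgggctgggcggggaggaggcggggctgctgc
The motifs searched on both strands were the TEAD core GGAATG (found as CATTCC on the other strand), the SOX cores ACAAAG (found as CTTTGT) and ACAATG (found as CATTGT), the EGR core GCGTGGG (found as CCCACGC) and the AP-1 site TGACTCA (found as TGAGTCA). Pmp22 held the TEAD core 173 bases before its start, and Prx held it 37 bases and the EGR core 161 bases before its start. Mag held the first SOX core 67 bases before its start. The windows of Ngfr, Ncmap and S100b held none of these letters. Of 27026 promoter windows of 250 bases, 12.6% held the TEAD core, 16.5% and 10.9% the first and the second SOX core, 4.18% the EGR core and 4.43% the AP-1 site, so such matches are common and describe letters, not bound sites.

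In the comparison of desmin knock-out with wild-type muscle, the means of 4 members were higher and those of 4 were lower in the knock-out mice. With limma and Benjamini-Hochberg adjustment over the 14289 tested genes, 0 of the 7 tested members had an adjusted p under 0.05, while 13.7% of all tested genes did (1956 genes, 7.7% higher and 5.99% lower in the knock-out mice). For Ngfr, which was taken from the fit without an expression limit, in which 5.55% of genes were called, the result was the same. An unadjusted p under 0.05 was found for 1 member, Ncmap. The median log2 difference of the 7 tested members was 0.0089, compared with -0.0029 over all tested genes. Without wild-type mouse 3, 0 of the 8 members were called, with limma adjusted p-values between 0.206 and 0.881. The 95% confidence intervals of the 8 differences lay between -0.58 and 0.49 on the log2 rlog scale at their outermost ends.

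**Figure D1:**
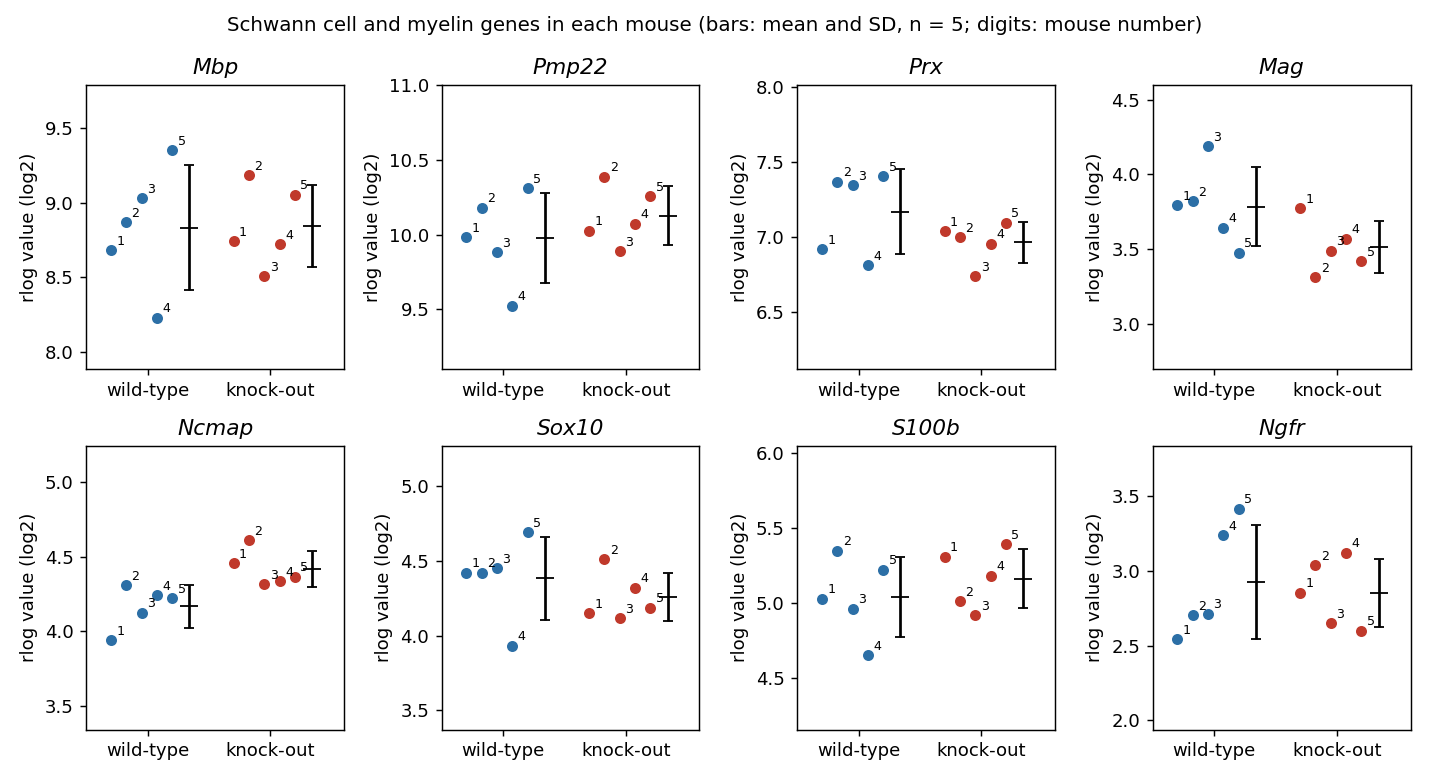
Rlog values (log2 scale) of the 8 genes in each mouse, with wild-type mice in blue and desmin knock-out mice in red; digits give the mouse number, the horizontal tick the mean and the bar the SD (n = 5), and each panel spans the same height on its own axis. The genotypes overlap in 7 panels and are separate in that of Ncmap, where the lowest knock-out mouse lies just above the highest wild-type mouse.

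Mbp (myelin basic protein, ENSMUSG00000041607, GRCm38 chr18:82475146-82585637, plus strand) holds the cytoplasmic faces of the myelin membrane together. Its rlog values were 8.74, 9.19, 8.51, 8.72 and 9.05 in knock-out mice 1 to 5 and 8.68, 8.87, 9.03, 8.23 and 9.35 in wild-type mice 1 to 5. The knock-out values fell within the range of the wild-type values, whose ends were mice 4 and 5. The means were 8.84 ± 0.27 and 8.83 ± 0.42 (SD, n = 5), a log2 difference of 0.01 with a standard error of 0.19 (limma adjusted p = 0.983, 95% confidence interval -0.40 to 0.41). The sign of this difference depended on single mice: it was -0.14 without wild-type mouse 4, -0.077 without knock-out mouse 2, -0.044 without knock-out mouse 5 and -0.028 without wild-type mouse 1.

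Pmp22 (ENSMUSG00000018217, chr11:63128982-63159547, plus strand) encodes a membrane protein of compact myelin whose dosage is tightly set, since its duplication or deletion causes inherited neuropathy in humans. Its rlog values were 10.03, 10.39, 9.89, 10.07 and 10.26 in knock-out mice 1 to 5 and 9.98, 10.18, 9.88, 9.53 and 10.31 in wild-type mice 1 to 5. The genotypes overlapped, and the lowest value belonged to wild-type mouse 4, the mouse that was also lowest for Mbp. The means were 10.13 ± 0.20 and 9.98 ± 0.30 (SD, n = 5), a difference of 0.15 with a standard error of 0.14 (limma adjusted p = 0.529, 95% confidence interval -0.16 to 0.46). Without wild-type mouse 4 the difference was 0.039, and without wild-type mouse 5 it was 0.23.

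Prx encodes periaxin (ENSMUSG00000053198, chr7:27499324-27520214, plus strand), a scaffold protein that links the outer Schwann cell membrane to the basal lamina. Its rlog values were 7.04, 6.997, 6.74, 6.95 and 7.09 in knock-out mice 1 to 5 and 6.92, 7.37, 7.34, 6.81 and 7.41 in wild-type mice 1 to 5. Wild-type mice 2, 3 and 5 lay above every knock-out mouse, whereas wild-type mice 1 and 4 lay among them. The means were 6.96 ± 0.14 and 7.17 ± 0.28 (SD, n = 5), a difference of -0.21 with a standard error of 0.14 (limma adjusted p = 0.363, 95% confidence interval -0.50 to 0.092). The exons of Prx overlap those of Gm15541, an antisense gene, by 300 bases (5.38% of the exonic bases of Prx). The library kit was stranded, but the strand setting of the counting is not given in the sources used here.

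Mag (myelin-associated glycoprotein, ENSMUSG00000036634, chr7:30899176-30914873, minus strand) is an adhesion molecule of the innermost myelin membrane, next to the axon. Its rlog values were 3.78, 3.31, 3.49, 3.57 and 3.42 in knock-out mice 1 to 5 and 3.79, 3.82, 4.19, 3.64 and 3.48 in wild-type mice 1 to 5. The wild-type values reached higher, with the highest in mouse 3, but the groups overlapped. The means were 3.51 ± 0.17 and 3.78 ± 0.26 (SD, n = 5), the most negative difference of the 8 genes at -0.27 with a standard error of 0.14 (limma adjusted p = 0.240, 95% confidence interval -0.58 to 0.036), and by exact permutation of the 10 values p was 0.0794 (two-sided). Without wild-type mouse 3 the difference of Mag was -0.17, smaller by a factor of more than 1.5.

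Ncmap, which encodes a non-compact myelin associated protein (ENSMUSG00000043924, chr4:135369576-135398227, minus strand), had rlog values of 4.45, 4.61, 4.32, 4.34 and 4.36 in knock-out mice 1 to 5 and 3.94, 4.31, 4.12, 4.24 and 4.22 in wild-type mice 1 to 5. Ncmap was the 1 member whose groups did not overlap, a pattern found in 14.4% of all tested genes, and the gap between the lowest knock-out value and the highest wild-type value was narrow (4.315 and 4.309). The means were 4.42 ± 0.12 and 4.17 ± 0.14 (SD, n = 5), a difference of 0.25 with a standard error of 0.11 and a 95% confidence interval of 0.0069 to 0.49. The unadjusted p from limma was 0.0446 and the adjusted p was 0.169. By exact permutation of these 10 values p was 0.00794, the smallest that 252 splits of 5 against 5 mice allow. Over the alternatives that tested it, the limma adjusted p of Ncmap ranged from 0.126 to 0.317, so it did not pass the threshold in any of them.

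Sox10 (ENSMUSG00000033006, chr15:79154908-79165240, minus strand) encodes the transcription factor that specifies Schwann cells and drives their myelin genes. For Sox10 the rlog values were 4.15, 4.51, 4.12, 4.32 and 4.19 in knock-out mice 1 to 5 and 4.42, 4.42, 4.45, 3.93 and 4.69 in wild-type mice 1 to 5. Wild-type mouse 4 was the lowest and wild-type mouse 5 the highest of all 10, with the knock-out mice between them. The means were 4.26 ± 0.16 and 4.38 ± 0.28 (SD, n = 5), a difference of -0.13 with a standard error of 0.14 (limma adjusted p = 0.606, 95% confidence interval -0.44 to 0.18). Without wild-type mouse 4 the difference of Sox10 was -0.24, and without wild-type mouse 5 it was -0.049.

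S100b (ENSMUSG00000033208, chr10:76253853-76261159, plus strand) encodes a calcium-binding protein widely used to stain Schwann cells, terminal Schwann cells included. The rlog values of S100b were 5.31, 5.01, 4.92, 5.18 and 5.39 in knock-out mice 1 to 5 and 5.03, 5.35, 4.96, 4.65 and 5.22 in wild-type mice 1 to 5. The groups overlapped, and wild-type mouse 4 was again the lowest. The means were 5.16 ± 0.20 and 5.04 ± 0.27 (SD, n = 5), a difference of 0.12 with a standard error of 0.15 (limma adjusted p = 0.637, 95% confidence interval -0.20 to 0.44). Single mice moved the difference of S100b both ways, from 0.022 without wild-type mouse 4 to 0.20 without wild-type mouse 2.

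Ngfr (ENSMUSG00000000120, chr11:95568818-95587735, minus strand) encodes the p75 receptor, which binds all neurotrophins and is typical of immature, non-myelinating and injured Schwann cells. Its rlog values were 2.86, 3.04, 2.65, 3.12 and 2.60 in knock-out mice 1 to 5 and 2.54, 2.70, 2.71, 3.24 and 3.42 in wild-type mice 1 to 5. Both the highest and the lowest value belonged to wild-type mice (mice 5 and 1), with every knock-out mouse between them. The means were 2.85 ± 0.23 and 2.92 ± 0.38 (SD, n = 5), a difference of -0.071 with a standard error of 0.19 (limma without expression limit, adjusted p = 0.856, 95% confidence interval -0.48 to 0.34). Its sign turned without wild-type mouse 5 (0.052) and without wild-type mouse 4 (0.0087). Because Ngfr lay under the expression limit, the shrinkage of the rlog transformation bears most on this gene.

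The comparison of the myelin genes with the injury-linked Ngfr was then made directly, by subtracting Ngfr from each gene within a mouse and fitting the genotype difference of these values over all tested genes. Called by this measure were 0 of the 7 other members (618 of 14289 genes, 4.33%, over all tested genes), and 0 had an unadjusted p under 0.05 in limma. Mbp exceeded Ngfr by 5.99 in knock-out and by 5.91 in wild-type mice on the log2 rlog scale, a difference of 0.080 with a 95% confidence interval of -0.42 to 0.58 (limma adjusted p = 0.997). The largest positive relative difference was that of Ncmap, which exceeded Ngfr by 1.56 in knock-out and 1.24 in wild-type mice, a difference of 0.32 (-0.18 to 0.82, limma adjusted p = 0.811). Mag had the most negative one, with 0.659 in knock-out and 0.860 in wild-type mice, a difference of -0.20 (-0.71 to 0.31, limma adjusted p = 0.968). Pmp22 (0.22), S100b (0.19), Prx (-0.14) and Sox10 (-0.056) lay between these. All 7 contrasts share the values of Ngfr, so their signs are not independent of each other, and each interval is wider than that of the gene itself.

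**Figure D2:**
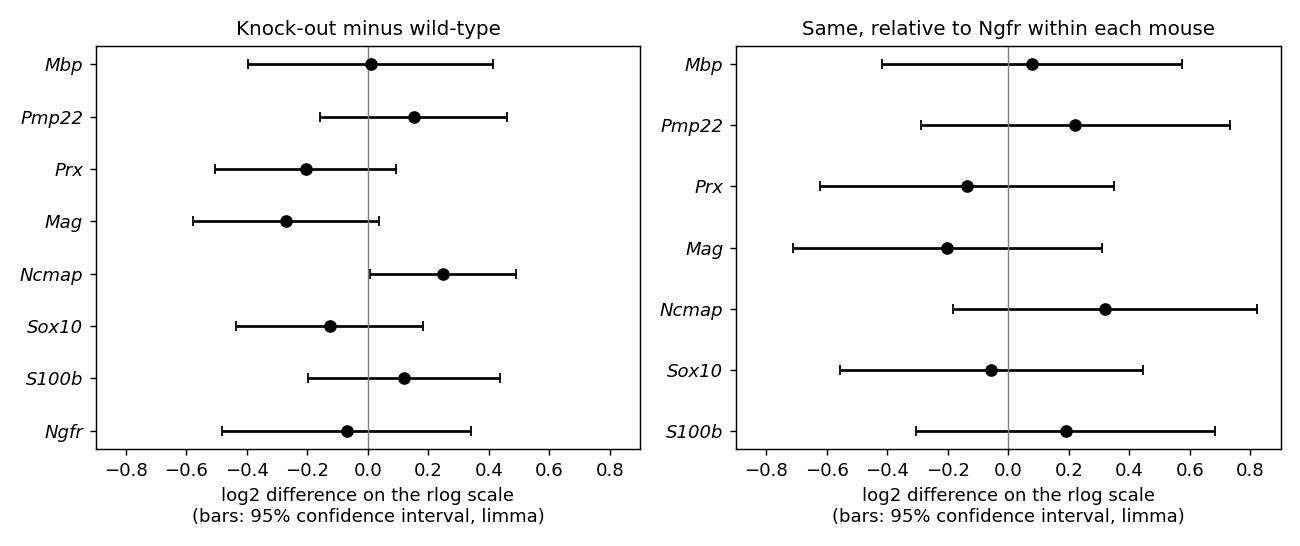
Log2 differences between desmin knock-out and wild-type mice on the rlog scale (left) and the same after subtraction of Ngfr within each mouse (right); points are limma estimates and bars 95% confidence intervals (5 mice per genotype). On the left the interval of Ncmap alone, 0.0069 to 0.49, leaves out 0, and on the right all 7 intervals hold 0. The intervals on the right share the spread of Ngfr, which limma pools over all genes.

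From mouse to mouse, part of the genes moved together within a genotype. Each value was expressed as its deviation from the mean of its genotype, and the 28 pairs of members were compared over the 10 mice with exact permutation tests within genotypes (two-sided, adjusted over the 28 pairs). Mbp varied with Pmp22 (Pearson r = 0.899, exact p = 0.00361, adjusted p = 0.0428, Spearman rho = 0.830, exact p = 0.00979, adjusted p = 0.137), with Prx (r = 0.843, exact p = 0.00215, adjusted p = 0.0428, rho = 0.818, exact p = 0.00521, adjusted p = 0.137) and with Sox10 (r = 0.883, exact p = 0.00618, adjusted p = 0.0433, rho = 0.758, exact p = 0.0223, adjusted p = 0.156). Pmp22 also varied with Sox10 (r = 0.878, exact p = 0.00458, adjusted p = 0.0428, rho = 0.770, exact p = 0.0184, adjusted p = 0.156). These 4 pairs passed the threshold by Pearson's r, and no pair passed it by the rank correlation after adjustment. Without the 2 mice farthest from the median of the first gene of the pair, the correlations were 0.738 for Mbp with Pmp22, 0.684 for Mbp with Prx, 0.655 for Mbp with Sox10 and 0.649 for Pmp22 with Sox10.

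No pair that includes Mag, Ncmap, S100b or Ngfr passed the threshold after adjustment. For Mbp with Mag, r was -0.172 (exact p = 0.703, adjusted p = 0.882, rho = -0.273, exact p = 0.490), and for Mbp with Ngfr it was 0.131 (exact p = 0.774, adjusted p = 0.882, rho = 0.0788, exact p = 0.859). The 7 pairs that include Ngfr had a median r of 0.0676 (range -0.505 to 0.488), and the 21 pairs without it had a median r of 0.382 (range -0.347 to 0.899). The difference between these medians was not tested. Single mice stood at the ends of this variation. Wild-type mouse 4 was the lowest of its genotype for 5 of the 7 genes other than Ngfr (median deviation -0.39) and knock-out mouse 3 for 6 of 7 (median deviation -0.23). At the other end, wild-type mouse 5 and knock-out mouse 2 were each the highest of their genotype for 4 of the 7 genes, with median deviations of 0.24 and 0.19. For Ngfr, wild-type mouse 4 lay above the mean of its genotype. The SD of all 8 genes was larger in wild-type than in knock-out mice, which was also so for 82.9% of all tested genes, and without wild-type mouse 3 it was so for 7 of 8 members and 68.4% of all tested genes.

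**Figure D3:**
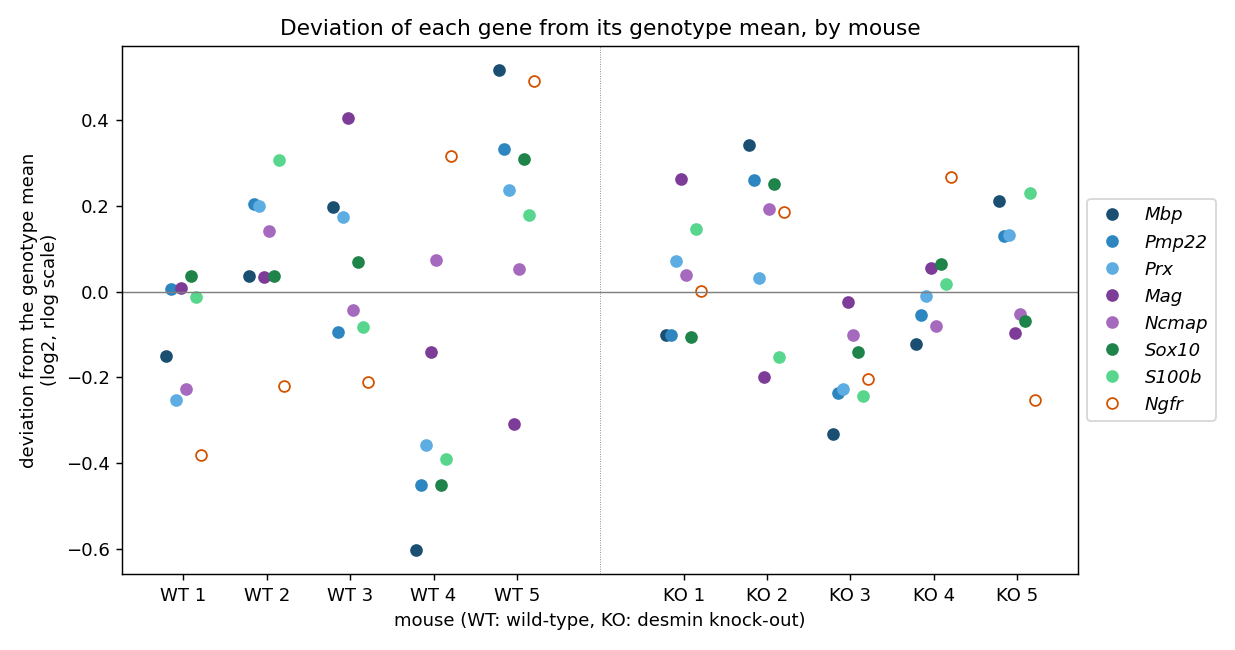
Deviation of each gene from the mean of its genotype (log2, rlog scale) in each mouse, with 1 coloured point per gene and open circles for Ngfr. Most filled points of wild-type mouse 4 and all of those of knock-out mouse 3 lie below 0, while the open circle of wild-type mouse 4 lies above it.

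Other genes also varied with Mbp. By the correlation of deviations over the 10 mice, given here as a description over 14289 genes, the 5 genes most like Mbp were Lig1 (r = 0.928), Ndrg1 (0.923), Arap1 (0.920), Lekr1 (0.914) and C2 (0.912), none of which is a member of the lists used here. For Ngfr the 5 most alike were Bst2 (0.910), Dact3 (0.905), Smco4 (0.904), Efcab6 (0.900) and Fam117a (0.893). None of these 10 genes was called between the genotypes. The median r with Mbp was 0.469 for 12 further myelin genes, 0.450 for 10 regulators of Schwann cells, 0.562 for 3 perineurial genes, 0.504 for 10 macrophage genes and 0.463 for 10 fibroblast genes, compared with 0.073 for 10 muscle fibre genes, -0.032 for 10 genes of satellite cells and 0.026 over all tested genes. It was 0.056 for 5 genes of non-myelinating and immature Schwann cells and 0.082 for 7 genes of repair Schwann cells. For 10 genes listed as neurotrophin ligands and receptors it was 0.184. For axon genes it was 0.337, for endothelial genes 0.363, for pericyte and smooth muscle genes 0.213 and for adipocyte genes -0.035. The part of tissue composition or dissection in this variation was not tested.

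Of 14 further myelin genes, 12 were tested, of which 2 were higher and 1 was lower in knock-out mice (median log2 difference 0.17), beside 7.7% and 5.99% of all tested genes. Gldn, which encodes gliomedin, a protein that Schwann cells deposit at the node of Ranvier, rose from 4.37 ± 0.13 to 5.20 ± 0.43 (SD, n = 5), a difference of 0.83 (limma adjusted p = 0.0071). Cadm4, an adhesion molecule of the Schwann cell internode, fell from 6.22 ± 0.33 to 5.64 ± 0.18 without overlap (difference -0.58, limma adjusted p = 0.0273). Cnp, the enzyme CNPase of myelin, rose from 8.47 ± 0.15 to 8.79 ± 0.090 (difference 0.31, limma adjusted p = 0.0479), but this call was lost when any 1 of 9 mice (all but wild-type mouse 3) was left out, with adjusted p-values of 0.0565 to 0.123. That of Cadm4 was lost without knock-out mouse 1, 3 or 4 (0.0645 to 0.0699).

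Of the 10 tested regulators of Schwann cells, 5 rose and 0 fell in knock-out mice (11 listed, median log2 difference 0.46). Over all tested genes, 7.7% were higher and 5.99% were lower. Nab2, which encodes a co-regulator that binds EGR proteins, had rlog values of 9.28, 9.22, 9.04, 9.26 and 9.12 in knock-out mice 1 to 5 and 7.59, 7.71, 7.58, 7.52 and 7.74 in wild-type mice 1 to 5. Every knock-out mouse lay above every wild-type mouse by more than the spread within either group, and the difference was 1.56 with a standard error of 0.092 (limma adjusted p = 2.4e-07). Egr2 (Krox20), the transcription factor needed for myelination, had 5.55, 5.53, 6.06, 5.41 and 5.50 in knock-out mice 1 to 5 and 4.89, 4.64, 4.46, 4.29 and 4.66 in wild-type mice 1 to 5. These groups did not overlap either, and the difference was 1.02 with a standard error of 0.15 (limma adjusted p = 4.5e-04). Erbb3, the receptor for axonal neuregulin-1 on Schwann cells, rose from 7.14 ± 0.42 to 7.88 ± 0.18 without overlap (difference 0.74, limma adjusted p = 0.0135, and 0.40 with sample weights). The weakest calls were Nab1 (0.53, adjusted p = 0.0278) and Pou3f1 (0.51, adjusted p = 0.0475). The count of regulators that rose was 3 without knock-out mouse 4 or 5 or wild-type mouse 2. The call of Nab1 was lost when 1 of 5 mice was left out (knock-out mouse 1, 2, 4 or 5 or wild-type mouse 2; limma adjusted p 0.0515 to 0.0803) and that of Pou3f1 when any mouse but knock-out mouse 1 was left out (0.0546 to 0.116). Egr2, Nab1, Nab2 and Erbb3 are not specific to Schwann cells, and which cells of the muscle carried these differences was not tested.

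Of 13 genes listed as neurotrophin ligands and receptors, 10 were tested, of which 3 were higher and 1 was lower (median log2 difference 0.19). Over all tested genes, 7.7% were higher and 5.99% were lower. The list also holds co-receptors and intracellular partners of p75, the product of Ngfr. Lingo1, a co-receptor of p75, had rlog values of 6.42, 6.32, 6.25, 6.75 and 6.29 in knock-out mice 1 to 5 and 4.36, 4.33, 4.597, 4.73 and 4.87 in wild-type mice 1 to 5. No values overlapped, and the difference was 1.83 with a standard error of 0.14 (limma adjusted p = 2.2e-06). Sort1 (sortilin), which pairs with p75 to bind pro-neurotrophins, fell from 11.93 ± 0.11 to 11.25 ± 0.12 without overlap (difference -0.68, limma adjusted p = 2.1e-04). Bdnf, which encodes a neurotrophin, rose from 4.71 ± 0.48 to 5.94 ± 0.23 without overlap (difference 1.23, limma adjusted p = 0.0012, and 0.78 with sample weights). Ntf5, the gene of neurotrophin-4, rose from 7.98 ± 0.25 to 8.50 ± 0.074 (difference 0.52, limma adjusted p = 0.0109). Muscle fibres and other cells of muscle also express several of these genes.

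Of 14 genes of repair Schwann cells, the state that follows nerve injury, 7 were tested, of which 2 were higher and 0 were lower (median log2 difference 0.36). The 2 were Bdnf and Tnc, the matrix protein tenascin-C, which rose from 6.33 ± 0.39 to 7.34 ± 0.35 (difference 1.013, limma adjusted p = 0.0043). The other 7, among them Gdnf, Shh, Olig1, Artn and Gap43, lay under the expression limit. Of the tested genes, 5 were not called, among them Runx2 with a difference of 0.41 (limma adjusted p = 0.0797). Which cells of the muscle carried the differences of Bdnf and Tnc was not tested. Of 9 genes of non-myelinating and immature Schwann cells, 5 were tested, of which 0 were higher and 1 was lower (median 0.36). This was L1cam, an adhesion molecule, with a difference of -0.43 (limma adjusted p = 0.0474), a call that was lost when 1 of 7 mice was left out (all but knock-out mouse 1 and wild-type mice 3 and 4; adjusted p 0.0687 to 0.126). Ncam1, which is also expressed by denervated muscle fibres, had a difference of 0.57 (limma adjusted p = 0.0731), and without wild-type mouse 3 its adjusted p was 0.0080. Cdh19 had a difference of 0.36 (limma adjusted p = 0.276). Over these 5 lists, 14 of 43 tested genes (32.6%) were called, 11 of them higher, beside 13.7% of all tested genes. That count was 9 without knock-out mouse 4. The lists were chosen with earlier results of these data known, so these shares describe the lists and test nothing.

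**Figure D4:**
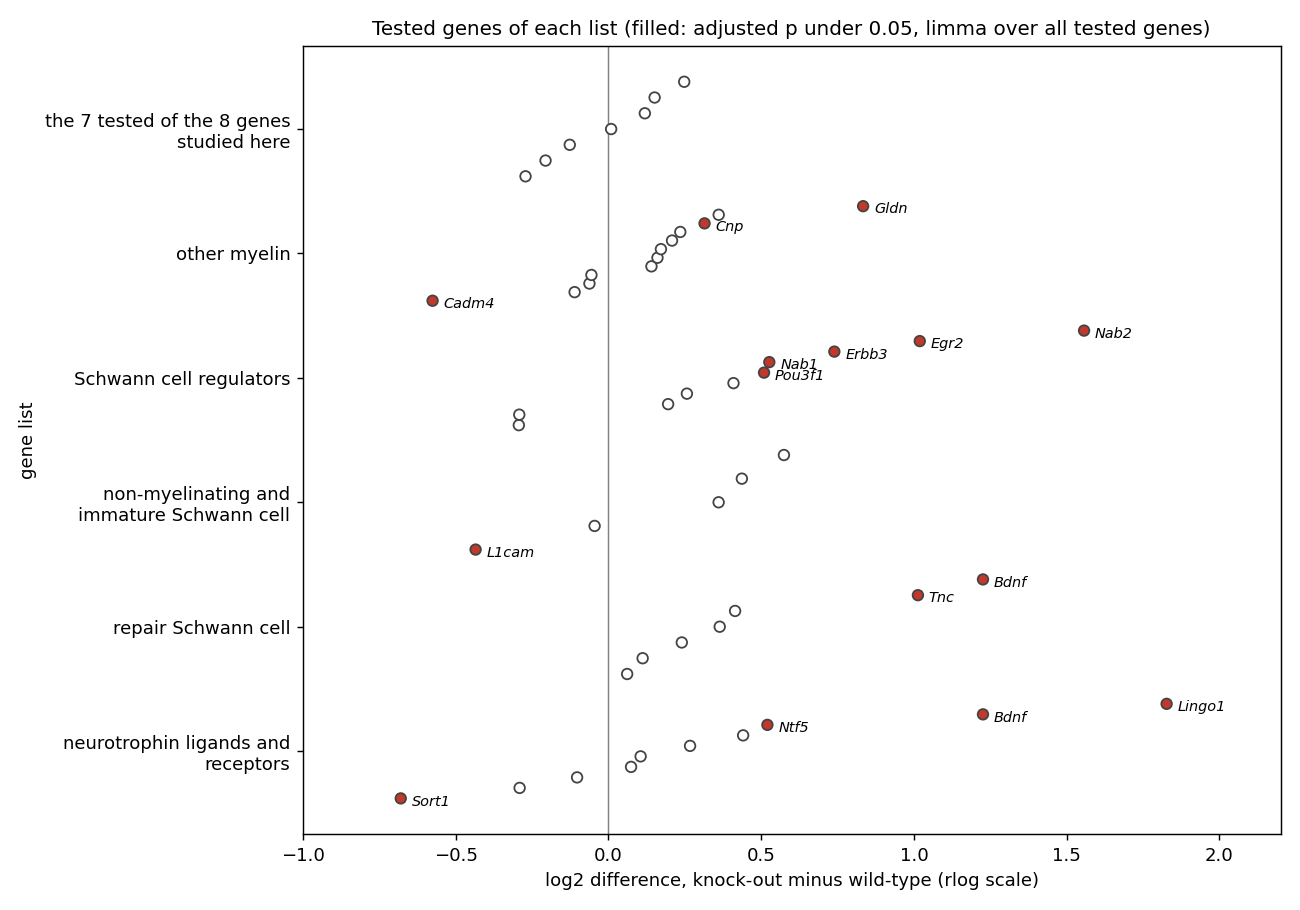
Log2 difference (desmin knock-out minus wild-type, rlog scale) of every tested gene in 6 gene lists, 1 point per gene spread vertically by rank, with filled, named points for genes with a limma adjusted p under 0.05. The 7 tested members lie between -0.27 and 0.25 and none is filled, whereas filled points reach 1.56 (Nab2) among the regulators and 1.83 (Lingo1) among the neurotrophin ligands and receptors; Bdnf stands in 2 lists.

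Markers of other cell types were counted in the same libraries, beside 7.7% of all tested genes higher and 5.99% lower. Of 9 axon genes, 3 were tested, with 2 higher and 1 lower (median log2 difference 0.65). The lower one was Stmn2 (difference -0.66). Of those under the limit, 2 genes, Slc18a3 and Slc5a7, were listed at 0 in every mouse. Of 10 fibroblast genes, 4 were higher and 1 was lower (median 0.28, Col1a2 0.64), with a summed expression of 31469 to 43471 in knock-out and 21410 to 43074 in wild-type mice. Without knock-out mouse 1, 2, 4 or 5 or wild-type mouse 2 or 4, 2 fibroblast genes were higher, and without knock-out mouse 1 or 3, 0 were lower. Of 10 genes of satellite cells and myoblasts, 4 were higher and 1 was lower (median 0.25, Mymk 1.93), with a sum of 2739 to 3391 and 2300 to 3051, and 0 were lower without knock-out mouse 4 or 5. Endothelial genes were lower for 5 of 8 (median -0.45, Vwf -0.62), with a sum of 3730 to 5061 and 5166 to 6897. With 1 mouse left out, this count was 3 or 4. It was 3 without any 1 of the knock-out mice or without wild-type mouse 2. Of the macrophage genes 0 of 10 were called (median 0.0064, Csf1r -0.18), of the adipocyte genes 0 of 8 (median -0.13, Lpl -0.38) and of the perineurial genes 0 of 3 tested (4 listed, median 0.18, Itgb4 -0.49). Without wild-type mouse 4, Lpl (limma adjusted p = 0.0311) and Itgb4 (0.0148) were called lower, and 1 adipocyte gene was called without knock-out mouse 3. Pericyte and smooth muscle genes were higher for 1 and lower for 1 of 7 (median -0.28, Cspg4 1.02), and muscle fibre genes higher for 1 and lower for 2 of 10 (median -0.41, Myh2 0.77, a call lost without knock-out mouse 1, 2 or 3 at limma adjusted p-values of 0.0541 to 0.0562). With 1 mouse left out, 0 to 2 muscle fibre genes were higher and 0 to 2 lower, with 0 lower without knock-out mouse 4 or 5, 1 lower without knock-out mouse 1, 2 or 3 or wild-type mouse 1, 2 or 4, and 2 higher without wild-type mouse 3. The summed expression of the 8 members was 1505 to 2146 in knock-out and 1231 to 2196 in wild-type mice. The part of these other cell types in the values of the regulators and neurotrophin genes was not tested.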

How the data were processed

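The data are RNA-Seq of gastrocnemius muscle (with plantaris, by another passage of the study), 5 mice per genotype. Per the submitters' processing notes, the authors trimmed reads with cutadapt 2.5, aligned them with STAR 2.5.4a to GRCm38, counted them per gene with featureCounts (Subread 1.6.1) and used DESeq2. The study's methods give another featureCounts version, run on Galaxy with mm10 genes. The deposited table holds rlog values (log2, corrected for library size, each gene pulled towards its own mean), so counts and depth are unknown. All 10 sample columns were used, and no pair was identical. Symbols and positions came from GENCODE M21.

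Genes whose mean reached log2(10) entered limma 3.58.1 in R 4.3.3 (lmFit, eBayes with trend, genotype only, two-sided, Benjamini-Hochberg over 14289 genes). Ngfr came from the same fit without limit (28153 genes that varied). Tests over 10 values were exact permutation tests. The members and the gene lists were chosen with earlier results of these data known. Named were the members, Des, up to 3 genes per list with the smallest p (of which 1 is given for each other cell type), all called genes of the 5 Schwann cell and neurotrophin lists, and the 5 genes most like Mbp and Ngfr. The called genes beyond those 3 were added after the values were seen. Some listed genes are not reported here. Alternatives were no limit, median centring or quantile normalization, a limit of log2(50), sample weights, 1 prior variance, a replicate block, Y-linked transcripts as a covariate and each mouse left out.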

Additional observations from a re-analysis of the deposited data

Results flagged for a closer look

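Each group of 5 mice was checked for a mouse far from the others. This covered the 8 members, Des and the 43 tested genes of the 5 Schwann cell and neurotrophin lists. The measure was the gap to the nearest mouse relative to the range of the group (Dixon's critical value 0.710). Of 104 groups checked, 7 had such a mouse, beside about 5.2 by chance, and none of these was a group of the 8 members. For Des, wild-type mouse 3 had 17.74 (16.10 to 16.55 in the rest of its genotype) and for Ntf5 it had 8.41 (7.79 to 7.97), which reached the knock-out range of Ntf5. Wild-type mouse 4 stood out for Foxd3 with 4.54 (4.14 to 4.24) and for Ntrk3 with 3.62 (3.86 to 3.96). Among the knock-out mice, Egr2 was 6.06 in mouse 3 (5.41 to 5.55 in the others), Cldn19 was 4.50 in mouse 4 (4.81 to 4.87) and Nfasc was 3.80 in mouse 1 (3.999 to 4.08).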

How the results depend on the processing

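The 18 alternatives gave 0 called members in every case, and 0 members called relative to Ngfr. Under the limit of log2(50), Mag, Ncmap, Sox10 and S100b were not tested. The sign of the smallest differences was not stable. For Mbp it was -0.034 with median centring, -0.021 with quantile normalization and between -0.14 and 0.14 with 1 mouse left out. For Ngfr it was 0.096 with sample weights and -0.17 to 0.052 with 1 mouse left out. Relative to Ngfr, sample weights gave -0.093 for Mbp, -0.047 for Pmp22 and -0.049 for S100b, and leaving out 1 mouse gave -0.15 to 0.18 for Mbp and -0.25 to 0.049 for Sox10. The cause was not tested. Over all genes, 4220 were called with sample weights and 1400 to 2496 with 1 mouse left out. In the 5 Schwann cell and neurotrophin lists, 9 genes were called without an expression limit, 8 above log2(50) (fewer genes tested), 19 with sample weights and 9 to 14 with 1 mouse left out. The 4 Y-linked transcripts used as a covariate were themselves not called (0 of 4). Mice with the same replicate number showed no clear pairing over all tested genes (same-number correlations -0.219 to 0.0673, 0 of 5 over 0.1). A weak pairing could go unseen by this measure. The replicate block gave 1579 called genes, 10 in the 5 lists and 0 members. The unknown depth and the shrinkage of weakly expressed genes limit what could be seen for Mag, Ncmap, Sox10 and Ngfr.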
